A study of Rattus norvegicus with 24 samples.

Results

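The genes described here are 10 genes of the circadian clock and its direct outputs, measured in the livers of rats that received metformin or vehicle. They are Dbp, Tef, Hlf, Per1, Per2, Per3, Cry1, Nr1d1, Nr1d2 and Usp2. They were listed by symbol, with earlier results of these data known. All 10 were found among the 22093 genes with a probe set of a single symbol, and all 10 were above the filter on low values in all 24 arrays, so each was among the 19686 genes tested. Each gene stands for its brightest probe set on average, and Cry1 was the only member with a second probe set, which had a mean of 5.50 on the log2 scale and followed the first with r = 0.80 over 24 arrays. All values below are log2 of the deposited intensity, so a difference of 1 is a doubling, and levels were compared between groups only, never between genes.

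Liver RNA of 24 male rats of the strain Wistar (RccHan:WIST), aged 7 to 8 weeks, was measured on 24 arrays in 6 groups of 4. Control rats received the vehicle (ethanol, Kolliphor HS 15 and tap water, 10, 40 and 50 parts of 100) and no metformin, and the other rats received metformin at 800 mg/kg, by gavage once daily for 1, 3 or 14 days. The animals were kept 2 or 3 to a cage, under a 12 h light-dark cycle with free access to chow. Which rats shared a cage is not given, so rats of a group may not be independent. Necropsy followed the last day of each period. The sources used here give neither its hour nor whether the animals had eaten. The 3 control groups therefore differ in the day of necropsy, in the number of gavages and in age, and these cannot be told apart. The control comparisons describe what the liver clock genes did between days without drug. The comparisons within a day describe what they did with it.

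The circadian clock of liver cells is a transcriptional loop. The activators Clock and Bmal1 bind E-boxes and switch on the Per and Cry genes, whose proteins return to repress them. A second loop runs through the nuclear receptors Nr1d1 and Nr1d2, which repress Bmal1 at ROR elements. Dbp, Tef and Hlf are the output factors of the PAR bZIP family, which bind D-boxes in genes of detoxification and metabolism, and Usp2 is a rhythmic deubiquitinase that acts on clock proteins. In rodent liver the level of most of these transcripts depends strongly on the time of day and on feeding.

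The promoters of the members on which the results turn are shown because the clock acts on them through short motifs. RefSeq (build GRCr8) gave 9 windows of 300 bases, from 250 before to 50 after a start site, for 8 of the 10 members, and none was listed for Hlf and Cry1. The windows of Dbp (chr1:105312006-105312305, plus strand), Tef (chr7:115206577-115206876, plus strand), Per1 (chr10:54304126-54304425, plus strand) and Usp2 (chr8:53310620-53310919, plus strand) are printed 5′ to 3′, with the later of both Nr1d1 windows (chr10:84229405-84229704, minus strand). Capitals mark the motifs searched on both strands.
Dbp: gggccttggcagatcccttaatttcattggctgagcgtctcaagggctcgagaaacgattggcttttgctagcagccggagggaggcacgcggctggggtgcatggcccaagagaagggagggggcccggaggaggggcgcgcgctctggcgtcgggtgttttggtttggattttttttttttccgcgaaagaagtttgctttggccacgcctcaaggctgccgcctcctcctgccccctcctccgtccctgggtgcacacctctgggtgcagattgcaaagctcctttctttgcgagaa
Tef: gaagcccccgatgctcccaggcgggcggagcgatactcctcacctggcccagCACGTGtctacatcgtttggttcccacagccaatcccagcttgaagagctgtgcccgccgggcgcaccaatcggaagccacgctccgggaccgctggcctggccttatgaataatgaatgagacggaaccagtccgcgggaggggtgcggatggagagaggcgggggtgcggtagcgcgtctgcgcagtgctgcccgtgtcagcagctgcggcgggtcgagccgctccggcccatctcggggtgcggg
Per1: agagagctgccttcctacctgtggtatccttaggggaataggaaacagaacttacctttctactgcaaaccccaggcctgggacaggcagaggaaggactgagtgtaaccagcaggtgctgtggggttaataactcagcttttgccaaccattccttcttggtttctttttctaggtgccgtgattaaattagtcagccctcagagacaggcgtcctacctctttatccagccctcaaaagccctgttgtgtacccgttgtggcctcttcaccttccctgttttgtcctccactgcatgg
Nr1d1: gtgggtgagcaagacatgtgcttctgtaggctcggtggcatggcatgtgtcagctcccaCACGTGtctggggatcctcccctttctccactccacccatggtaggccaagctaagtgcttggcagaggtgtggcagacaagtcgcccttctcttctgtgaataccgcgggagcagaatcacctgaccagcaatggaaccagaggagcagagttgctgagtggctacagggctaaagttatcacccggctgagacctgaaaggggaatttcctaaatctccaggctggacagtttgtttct
Usp2: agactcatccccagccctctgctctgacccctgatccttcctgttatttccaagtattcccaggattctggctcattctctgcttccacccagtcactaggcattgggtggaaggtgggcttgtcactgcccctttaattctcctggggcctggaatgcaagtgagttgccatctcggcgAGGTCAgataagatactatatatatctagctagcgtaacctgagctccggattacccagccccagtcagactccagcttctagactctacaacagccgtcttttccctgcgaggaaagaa
The E-box CACGTG lay in the Tef window at positions -198 to -193 from the start site and in the printed Nr1d1 window at -191 to -186. It was in 6.42% of all 33469 windows of this length. The other Nr1d1 window, at the outer end of the gene, held none of the motifs searched. The letters AGGTCA, only part of a ROR element, lay in the Usp2 window at -70 to -65 and in that of Nr1d2. They were in 16.2% of all windows. The rest of a ROR element was not searched, so these matches do not show one. The D-box TTATGTAA was found in the Per2 window alone among the members (0.893% of all windows), and the CRE TGACGTCA in none of the 9 (1.83% of all windows). The printed windows of Tef, Per1, Usp2 and Nr1d1 start inside the full span of the gene, so other start sites lie upstream. A match in a window is a description of its letters.

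The labelled tissue was checked against its markers. The 5 hepatocyte markers measured were above the filter in all arrays, and their summed level lay between 21.07 and 21.28 over the 24 arrays. Markers of the other liver cells were also above the filter in all arrays: all 6 of Kupffer cells, 5 of sinusoidal endothelium, 5 of stellate cells, 4 of cholangiocytes, 5 of lymphocytes and 4 of erythroid cells. Of 4 neutrophil markers 1 was above it in all arrays, of 4 pancreatic acinar markers 2 and of 3 adipocyte markers 2. Replicates of a group correlated at 0.989 or more over the tested genes, and nothing in the labels ties rats to cages or batches. In bulk liver, fewer cells of a type and less RNA per cell cannot be told apart.

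In control livers, 4 of the 10 clock genes fell between day 1 and day 14 and none rose. They were the output factors Dbp and Hlf, the repressor Per1 and the deubiquitinase Usp2, with falls of 1.39-fold (Dbp) to 2.31-fold (Usp2). Of all genes tested 1.82% changed in this comparison and 1.56% fell. The median change of the 10 members was -0.51, against 0.02 over all genes. At an unadjusted p under 0.05, 8 of the 10 members passed, where 10.1% of all genes did. Day 14 control values lay below all day 1 values for 5 members, the 4 above and Tef, and 4.12% of all genes were separated in this way. Since the members were chosen with earlier results known, these shares describe them without a test. Of the 5 hepatocyte markers 1, Apoa1, fell in the same comparison, with a summed level of 21.20 to 21.28 on day 1 and 21.19 to 21.23 on day 14, and no marker of the other cell types was called. The part of cell makeup in the changes was not tested.

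**Figure D1:**
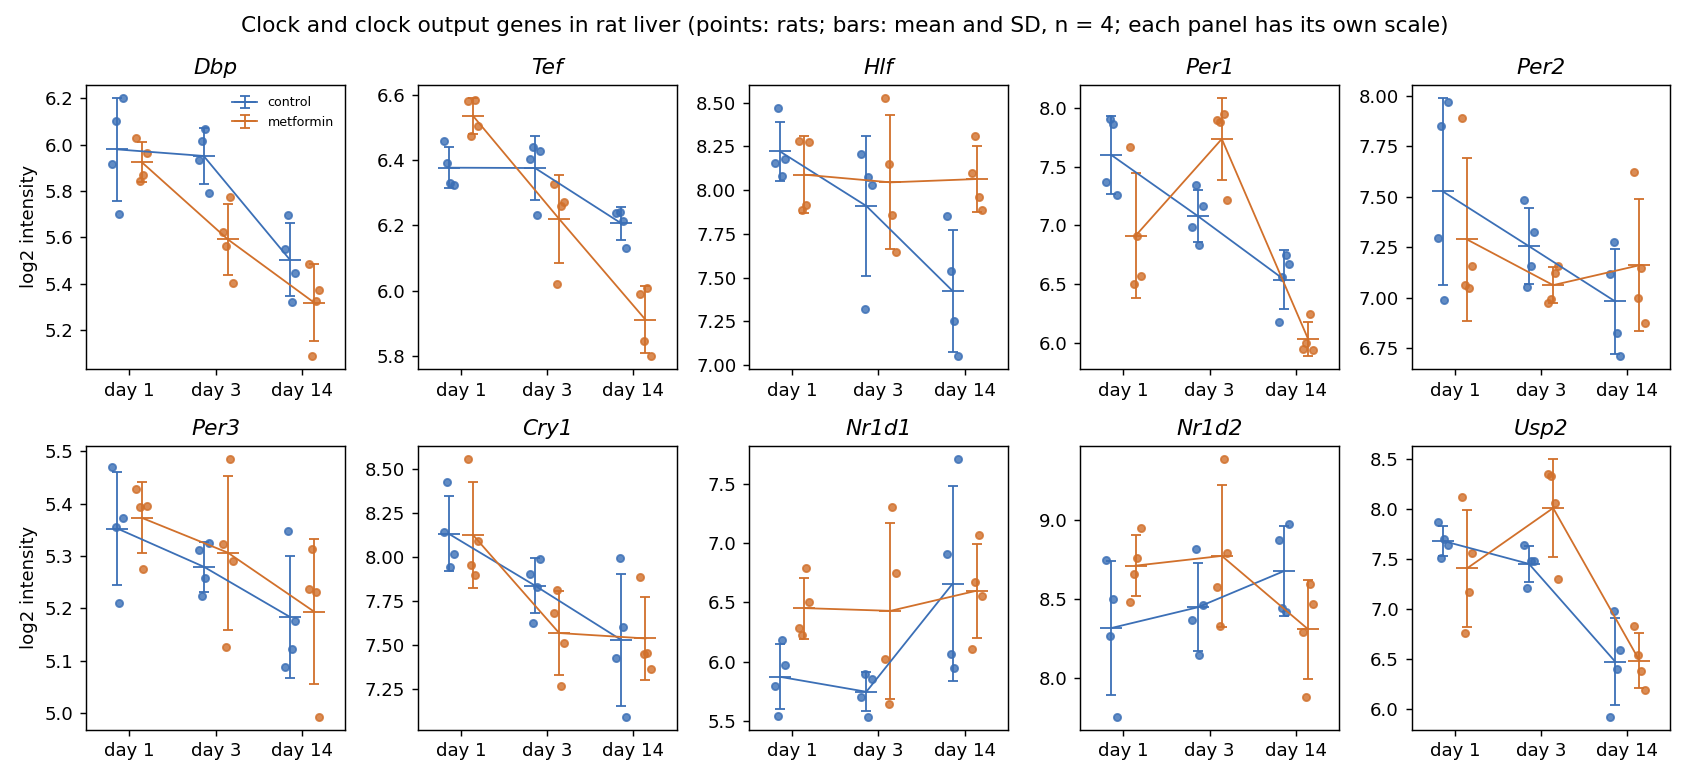
Level of each of the 10 genes (y axis, log2 intensity, own scale per panel) in each of the 24 rats (points), by day and treatment (x axis), with the group mean and SD (n = 4) as bars and lines joining the means. In control rats Usp2 ran from 7.51 to 7.87 on day 1 and from 5.92 to 6.97 on day 14, while Nr1d1 ran the other way with a wide spread on day 14, from 5.94 to 7.71.

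Among the PAR bZIP outputs, Dbp was 5.92, 6.10, 5.70 and 6.20 in the 4 control livers of day 1, and 5.55, 5.69, 5.32 and 5.45 on day 14. The groups did not overlap, though the highest day 14 liver lay close to the lowest of day 1. Dbp fell by 0.48 ± 0.11 (SE, n = 4 rats per group; limma, adjusted p = 0.0239). Most of that step lay after day 3, when the control values were still 5.79 to 6.07. Hlf was 8.16, 8.47, 8.08 and 8.18 on day 1 and 7.85, 7.54, 7.25 and 7.05 on day 14. Hlf fell by 0.80 ± 0.20 (adjusted p = 0.0382), or 1.74-fold. Tef, the member with the smallest spread within groups, moved from 6.32 to 6.46 down to 6.13 to 6.24, a change of -0.17 ± 0.07 that did not pass (adjusted p = 0.389) although the groups did not overlap. The call for Hlf was the least firm: it was lost without any single liver of either day except day 14 replicate 1, with adjusted p up to 0.165 (without day 14 replicate 4), and after quantile normalization (0.0599). The call for Dbp was lost without day 1 replicate 2 (0.0786) or 4 (0.113) and without day 14 replicate 3 (0.0922) or 4 (0.0758). When only the groups compared were fitted, neither passed (adjusted p = 0.150 for Dbp and 0.0669 for Hlf).

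Per1, the Per gene that responds quickly to outside cues such as glucocorticoids, was 7.37, 7.91, 7.86 and 7.26 in control livers on day 1. It was 6.98, 7.34, 6.83 and 7.17 on day 3 and 6.18, 6.56, 6.75 and 6.67 on day 14. The day 14 livers lay below every liver of both earlier days, and day 3 overlapped day 1 in 1 of 4 livers. Per1 fell by 1.06 ± 0.22 from day 1 to day 14 (adjusted p = 0.00866), or 2.09-fold, and this call held in each of the 9 alternative settings and with each of the 8 livers left out. Per2, its paralog in the repressor complex, changed by -0.54 ± 0.21 (adjusted p = 0.301), and 2 of 4 day 14 livers lay below all of day 1. Per3 changed by -0.17 ± 0.08 (adjusted p = 0.518). Cry1, the partner of the Per proteins, went from 7.94 to 8.43 on day 1 to 7.09 to 8.00 on day 14. Its change of -0.60 ± 0.18 did not pass (adjusted p = 0.0979), but it did without day 14 replicate 2, the liver at 8.00 (-0.76, adjusted p = 0.0248).

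Usp2 had the widest range of all members, 2.43 over the 24 arrays or 5.39-fold. In control livers it was 7.87, 7.51, 7.70 and 7.64 on day 1, 7.64, 7.20, 7.48 and 7.48 on day 3 and 5.92, 6.97, 6.40 and 6.59 on day 14. The day 14 livers stood apart from both earlier days. Usp2 fell by 1.21 ± 0.25 from day 1 to day 14 (adjusted p = 0.0108), or 2.31-fold. Without day 14 replicate 1, the lowest liver, the change was -1.03 with an adjusted p of 0.051.

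The REV-ERB genes had values in the other direction. Nr1d1 was 5.79, 5.54, 6.19 and 5.97 in control livers of day 1 and 6.91, 6.07, 5.94 and 7.71 on day 14. Of the day 14 livers 2 of 4 lay within the day 1 range, and the change of 0.78 ± 0.33 did not pass (adjusted p = 0.383). Without day 14 replicate 4 it was 0.43. Nr1d2 changed by 0.36 ± 0.22 (adjusted p = 0.671), and by 0.17 without day 1 replicate 4. These were the only members with a higher mean on day 14 than on day 1, whereas 55.7% of all genes had one.

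Between day 1 and day 3, no control gene was called among the members or in the whole table (0% of all genes). By limma's unadjusted p under 0.05, Per1 alone of the members passed (-0.52 ± 0.22, adjusted p = 0.998), with 4.71% of all genes doing so. The sign was negative for 9 members and positive for Nr1d2, and it was positive for 53.1% of all genes. Between day 3 and day 14, no member was called by limma (0.889% of all genes were), and 6 of 10 passed an unadjusted p of 0.05, as did 9.87% of all genes. Dbp came nearest, at -0.45 ± 0.11 (adjusted p = 0.0572), followed by Usp2 at -0.98 ± 0.25 (adjusted p = 0.0738). Dbp, Per1 and Usp2 were lower without overlap and Nr1d1 higher without overlap (6.18% of all genes did not overlap in either direction). The comparisons of day 14 with day 1 and with day 3 share the day 14 livers.

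**Figure D2:**
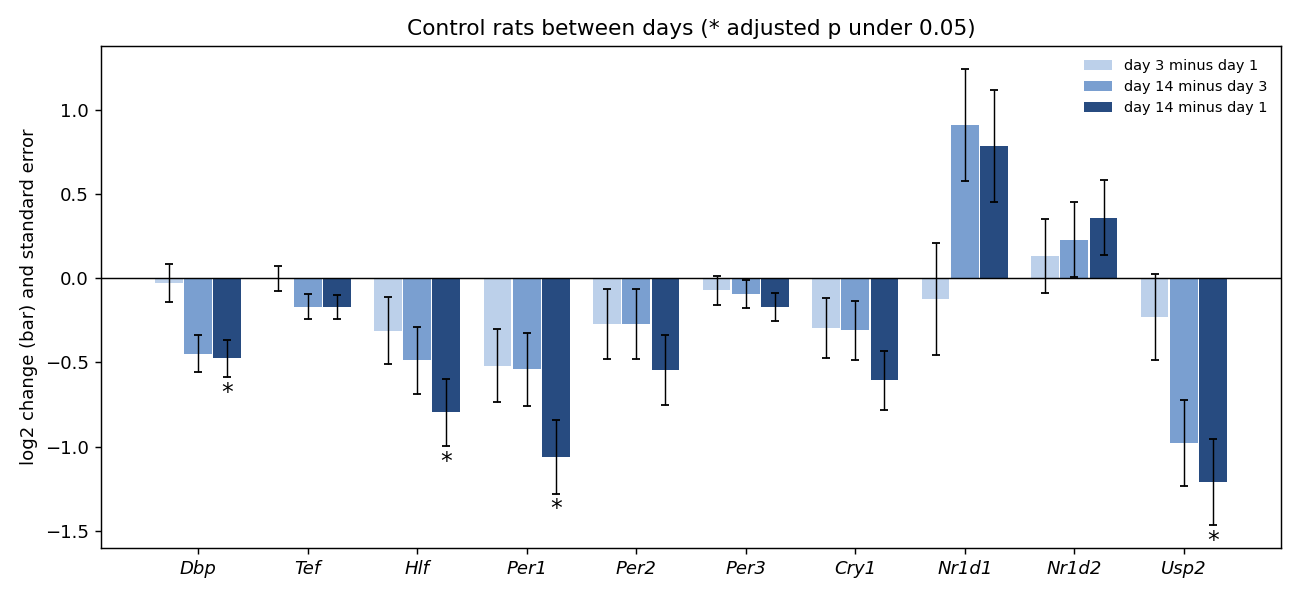
Change in control rats (y axis, log2) of each gene (x axis) for day 3 against day 1, day 14 against day 1 and day 14 against day 3, as bars with the model's standard error; asterisks mark an adjusted p under 0.05. Asterisks stand at Dbp, Hlf, Per1 and Usp2 for day 14 against day 1, with -1.21 for Usp2 as the largest fall.

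Of the other clock genes, most did not pass in these control livers. None of the 4 measured partner activators was called in any comparison: from day 1 to day 14 Clock changed by 0.03 (adjusted p = 0.963), Bmal1 by 0.07 (adjusted p = 0.882) and Npas2 by 0.33 (adjusted p = 0.325). Over all genes 1.82% were called from day 1 to day 14, and the median change was 0.02. Of 5 other repressors none passed between day 1 and day 14, with Cry2 at -0.40 (adjusted p = 0.446). Nfil3, which competes with the PAR bZIP factors for D-boxes, rose by 0.95 ± 0.19 between day 3 and day 14 (adjusted p = 0.0113), where 0.889% of all genes were called. The list of clock protein turnover and modification had 7 measured genes. From it Timeless, which acts at replication forks, fell by 0.47 ± 0.11 from day 1 to day 14 (adjusted p = 0.0328). Its fall is not a measure of clock protein turnover.

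Of 15 liver outputs of the clock, 3 fell in control livers from day 1 to day 14 and none rose, with a list median of -0.41, where 1.56% of all genes fell and the median over all genes was 0.02. Wee1, the kinase that holds cells back from mitosis, fell by 0.84 ± 0.14 (adjusted p = 0.00101). Por, the electron donor of microsomal cytochromes P450, fell by 0.95 ± 0.17 (adjusted p = 0.00293). Lonrf3 fell by 0.70 ± 0.13 (adjusted p = 0.00443). Of 8 genes of the glucocorticoid and CREB cues that reach Per1, Crem, a cAMP-responsive factor, rose by 0.77 ± 0.14 (adjusted p = 0.00263). Over all genes 0.259% rose in this comparison. Of these 8 genes 5 were higher on day 14, with a list median of 0.19, where 55.7% of all genes were higher. Tsc22d3, a glucocorticoid target, was lower without overlap at -0.59, which did not pass (adjusted p = 0.144). Of all genes 4.12% were lower without overlap. Fitting only the groups compared ended the calls of Timeless (adjusted p = 0.178), Crem (0.093) and Por (0.0503), and that of Nfil3 between day 3 and day 14 (0.0626). Leaving out 1 liver ended the call of Timeless in 5 of 8 cases, namely without day 1 replicate 3 or 4 or without day 14 replicate 2, 3 or 4 (adjusted p up to 0.139). The call of Nfil3 was lost without day 14 replicate 3 (0.0526) or 4 (0.0547).

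**Figure D3:**
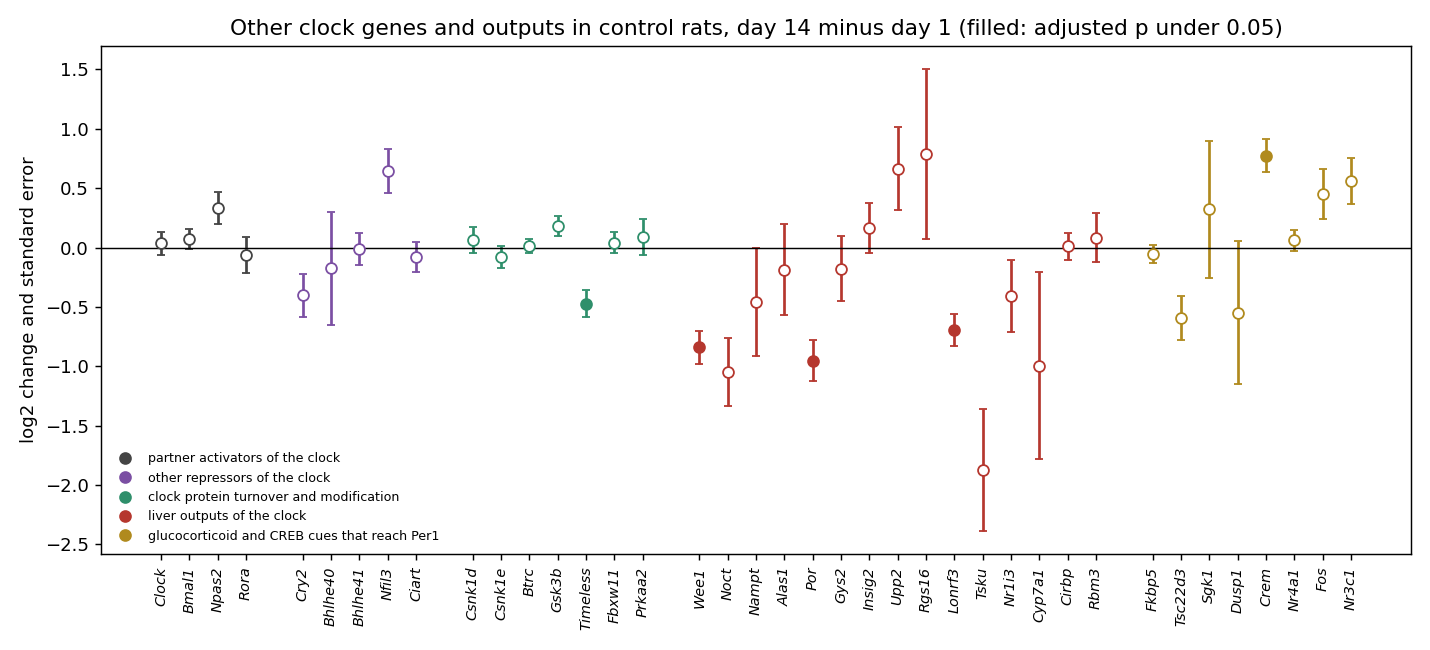
Change of the other clock genes, and of genes of the cues that reach Per1, by list (colour), in control rats from day 1 to day 14. Values are log2 changes with the standard error. Filled points have an adjusted p under 0.05. Wee1, Por, Lonrf3 and Timeless lie below 0 and Crem above 0 among the filled points.

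Genes of cell division moved in the same comparison. A cell division list of 20 genes was chosen after the data were seen, so its count is not a test. All 20 fell in control livers from day 1 to day 14, where 1.56% of all genes fell. Their median change was -2.64, against 0.02 over all genes. Their mean level was 8.17, 7.63 and 5.49 in control livers on days 1, 3 and 14, and 8.02, 8.02 and 5.64 with metformin. Over 24 arrays the list mean went with Usp2 at r = 0.77 and with Per1 at r = 0.75, and within groups at r = 0.07 and 0.21. For the other members r ran from -0.25 (Nr1d1) to 0.66 (Dbp), and within groups from -0.15 (Cry1) to 0.38 (Nr1d1). The part of cell division in the changes of the clock genes was not tested.

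With metformin, Tef was the only clock gene that changed against the control of the same day, and it did so on day 14. Tef was 5.99, 5.85, 6.01 and 5.80 in metformin livers and 6.24, 6.24, 6.21 and 6.13 in control livers of day 14. All 4 metformin livers lay below all 4 controls. Tef fell by 0.29 ± 0.07 (adjusted p = 0.0288), or 1.23-fold, where 3.29% of all genes changed and 1.22% fell. On day 1 the order was the reverse, with metformin livers from 6.47 to 6.58 above controls from 6.32 to 6.46, a change of 0.16 ± 0.07 that did not pass (adjusted p = 0.588). Of the 5 hepatocyte markers 2 were higher in the same day 14 comparison (median -0.09, none called). Their summed level ran from 21.07 to 21.21 with metformin and from 21.19 to 21.23 in controls. Markers of other cell types moved in both directions, with none called, where 52.7% of all genes were higher. Of pancreatic acinar markers 1 of 4 was higher (median -0.03), and of adipocyte markers 2 of 3 (median 0.004). Of erythroid markers 3 of 4 were higher (median 0.26), and of lymphocyte markers 3 of 5 (median 0.03). Of neutrophil markers 2 of 4 were higher (median 0.01), and of cholangiocyte markers 1 of 4 (median -0.07). All 5 of sinusoidal endothelium were lower (median -0.39, 3 at an unadjusted p under 0.05), with a summed level of 13.08 to 13.89 with metformin and 13.30 to 14.13 in controls. All 6 Kupffer cell markers were lower (median -0.19, summed level 13.01 to 13.64 against 12.56 to 13.95), as were all 5 of stellate cells (median -0.21, 10.88 to 11.05 against 10.55 to 11.62). The part of these markers in the change of Tef was not tested. The difference of both Tef effects, day 14 minus day 1, was -0.45 ± 0.10 and passed (adjusted p = 0.0278), where 1.66% of all genes did. Unadjusted, 3 members passed 0.05 in that difference, Hlf, Nr1d2 and Tef, with 14.1% of all genes. The day 14 call of Tef was lost without control replicate 1 (0.0972) or 2 (0.0653) and without metformin replicate 2 (0.0775) or 4 (0.0876). It was also lost when arrays were centred on their medians (0.0569) and when only the groups compared were fitted (0.171). The call of the difference was lost under centring (0.0579) and without 1 of 5 livers. These were control day 1 replicate 3, control day 14 replicate 1, metformin day 1 replicate 3 or 4, and metformin day 14 replicate 4, with adjusted p up to 0.0659.

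Hlf lay on the other side on day 14. It was 8.10, 8.31, 7.96 and 7.89 in metformin livers and 7.85, 7.54, 7.25 and 7.05 in controls. The groups did not overlap, but the change of 0.64 ± 0.20 did not pass (adjusted p = 0.0806). Tef and Hlf were the 2 members without overlap on day 14, and 8.41% of all genes had none. At an unadjusted p under 0.05, 3 members passed (Hlf, Per1 and Tef), with 16.8% of all genes. Metformin livers held Hlf at nearly the same mean on all days, 8.09, 8.04 and 8.06, while control means went from 8.22 to 7.91 and 7.42. The fall in controls and the day 14 comparison share the 4 control livers of day 14. The difference of the effect, day 14 minus day 1, was 0.77 ± 0.28 (adjusted p = 0.184). Dbp, the third PAR bZIP member, differed by -0.18 ± 0.11 on day 14 (adjusted p = 0.436).

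On day 1, no member was called by limma (0.0152% of all genes were), and Per1 and Tef passed an unadjusted p of 0.05, as did 8.22% of all genes. Per1 was 7.67, 6.50, 6.91 and 6.57 with metformin and 7.37, 7.91, 7.86 and 7.26 in controls, so that 3 of 4 metformin livers lay below all controls. The change was -0.69 ± 0.22 (adjusted p = 0.330). Nr1d1 was higher without overlap, at 6.28, 6.23, 6.79 and 6.50 against 5.79, 5.54, 6.19 and 5.97, a change of 0.58 ± 0.33 (adjusted p = 0.726). Nr1d1 and Tef were the members without overlap, in a table where 5.19% of genes had none. Cry1, Per3 and Dbp differed by less than 0.1.

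On day 3, no member was called by limma (0.254% of all genes were), and 4 of 10 passed an unadjusted p of 0.05, as did 13.6% of all genes. Per1 was 7.90, 7.89, 7.95 and 7.21 with metformin and 6.98, 7.34, 6.83 and 7.17 in controls. Here 3 of 4 metformin livers lay above all controls, the opposite of day 1, and the change was 0.66 ± 0.22 (adjusted p = 0.191). Usp2 had the same pattern, with 8.35, 8.33, 8.05 and 7.29 against controls of 7.20 to 7.64, and 3 of 4 metformin livers above all controls. Its change was 0.56 ± 0.25 (adjusted p = 0.339). In both genes metformin replicate 4 was the liver that did not stand apart. Dbp was lower without overlap, at 5.62, 5.56, 5.78 and 5.40 against 5.93, 6.01, 6.07 and 5.79, a change of -0.36 ± 0.11 (adjusted p = 0.160). It was the single member without overlap, where 7.1% of all genes had none. In the cell division list, all 20 genes were higher with metformin on day 3 (median 0.37, none called), where 42.7% of all genes were higher with a median of -0.03. On day 1, 18 of the 20 were lower (median -0.17), where 55.6% of all genes were higher. On day 14, 17 of the 20 were higher (median 0.11), where 52.7% of all genes were. The list mean overlapped between treatments on each day. On day 3 it ran from 7.33 to 8.88 with metformin and from 7.28 to 8.01 in controls. On day 1 it ran from 6.97 to 9.14 against 7.51 to 8.57, and on day 14 from 5.12 to 5.86 against 5.15 to 5.81. The list was chosen after the data were seen, so these counts are not a test. The part of cell division in the metformin effects was not tested.

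**Figure D4:**
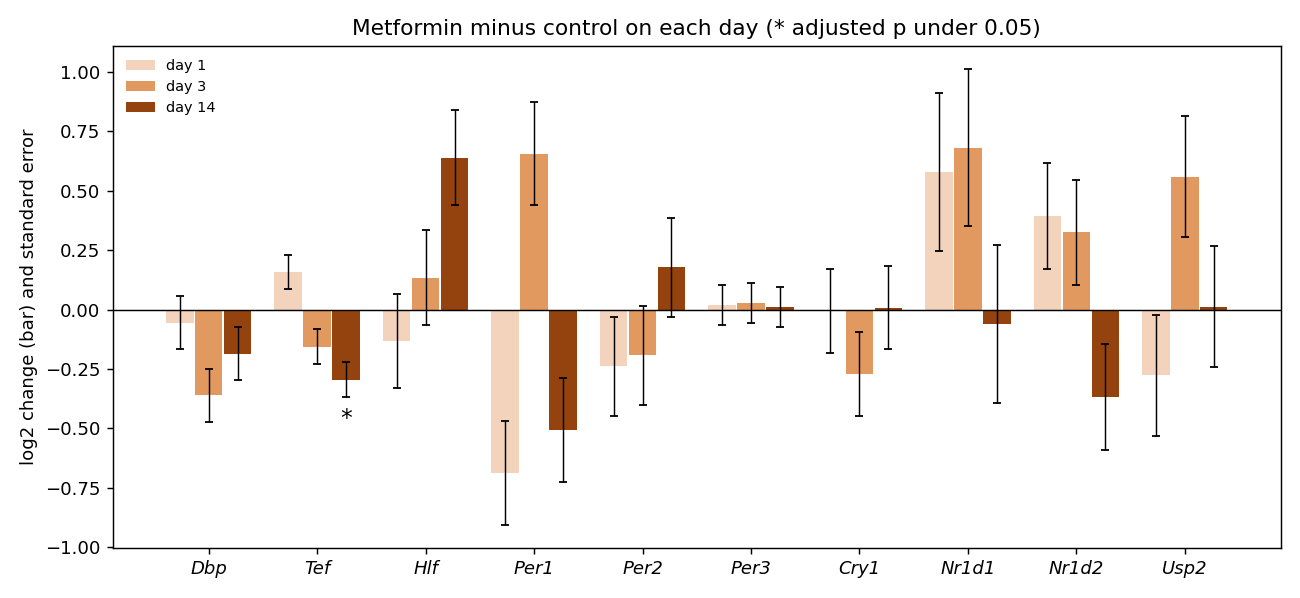
Metformin minus control (y axis, log2) for each gene (x axis) on days 1, 3 and 14, as bars with the model's standard error; the asterisk marks an adjusted p under 0.05. Per1 has values of -0.69, 0.66 and -0.51 on the 3 days, and the asterisk stands at Tef on day 14.

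Per1 had the largest single difference of effect between days among the members, though it did not pass. Its effect on day 3 minus that on day 1 was 1.34 ± 0.31 (unadjusted p = 2.55e-04, adjusted p = 0.152). No gene of the whole table was called in that comparison by limma (0%), and 10.7% of all genes passed an unadjusted p of 0.05. Of the members 3 did, namely Per1, Tef and Usp2. The effect of day 14 minus day 3 was -1.16 ± 0.31 (adjusted p = 0.409), with 0.00508% of all genes called and no member by limma. At an unadjusted p under 0.05, Per1 and Nr1d2 passed, as did 7.54% of all genes. On day 14 Per1 ran from 5.94 to 6.25 with metformin, the lowest group of all 6, against 6.18 to 6.75 in controls (-0.51 ± 0.22, adjusted p = 0.228).

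Averaged over the 3 days, no member was called by limma (3.23% of all genes were), and Dbp, Tef and Nr1d1 passed an unadjusted p of 0.05, as did 15.9% of all genes. Dbp had a mean effect of -0.20 ± 0.06 (adjusted p = 0.0942), and passed without control day 1 replicate 3 (-0.23, adjusted p = 0.0377). Nr1d1 had 0.40 ± 0.19 (adjusted p = 0.311). For Cry1 the 95% interval of the mean effect ran from -0.30 to 0.12, for Per2 from -0.33 to 0.17 and for Per3 from -0.08 to 0.12. These intervals bound what 4 rats per group can show. Usp2 and Cry1 showed nearly equal group means with and without metformin on day 14 (differences of 0.01 in both), with intervals of -0.52 to 0.54 and -0.36 to 0.37.

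The spread between rats of 1 group differed much among the members. The pooled SD within groups was 0.51 for Nr1d1, a spread wider than that of 98.1% of tested genes, and 0.39 for Usp2. It was 0.09 for Tef, which only 5.78% of tested genes undercut, and the median over all genes was 0.17. The order of the 6 group means overlapped between neighbours for nearly all members. The exceptions were Dbp, where metformin on day 1 lay above metformin on day 3, and Tef, where metformin on day 1 lay above control on day 1 and control on day 14 above metformin on day 14.

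Rats of 1 group differed from each other in several clock genes at once. Taking deviations from group means over 24 arrays, Cry1 went against Nr1d1 with r = -0.77, and against Nr1d2 with r = -0.49. Nr1d1 and Nr1d2 went together with r = 0.63, and so did Per2 with Cry1 (r = 0.66) and with Dbp (r = 0.62). The control livers of day 14 show this in single animals. Replicate 4 had the highest Nr1d1 (7.71) and the lowest Cry1 (7.09), and replicate 2 had a Cry1 of 8.00 with Nr1d1 at 6.07. Per1 and Usp2 had the highest correlation over all 24 arrays, r = 0.85, which was 0.55 within groups and 0.26 there without the 2 farthest livers. These 45 pairs share arrays and normalization, and the correlations describe them without a test.

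**Figure D5:**
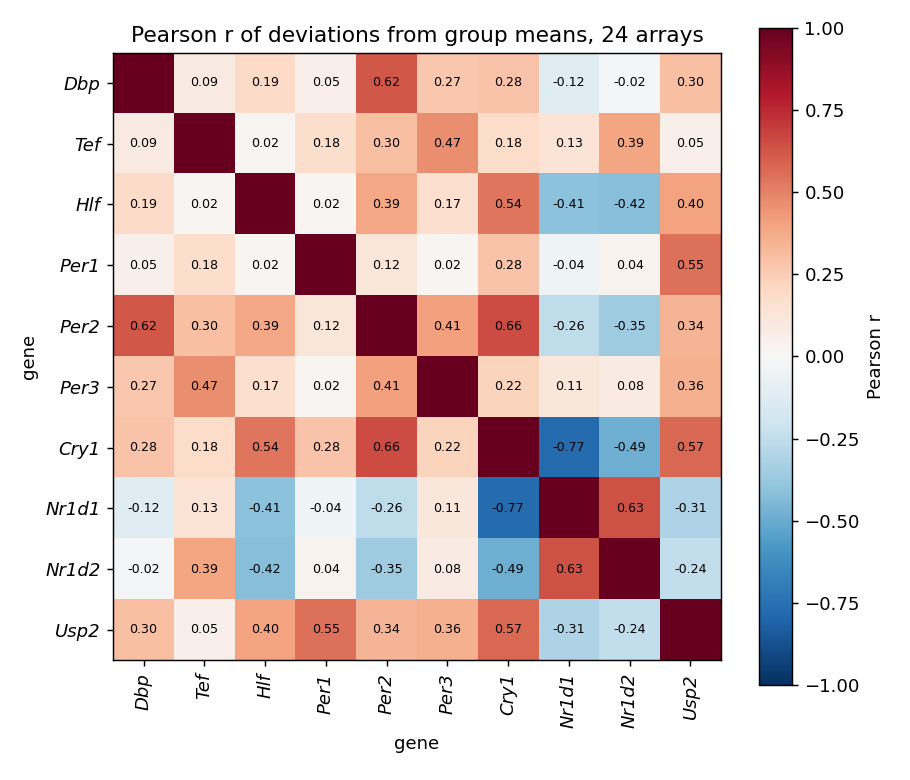
Pearson correlation (colour and number) between each pair of the 10 genes (both axes), over the deviations of 24 arrays from their group means. Cry1 against Nr1d1 is the strongest negative cell at -0.77, and Per2 with Cry1 the strongest positive at 0.66.

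Of the other 18135 genes compared, the one most like Dbp over the 24 arrays was Shank2 (r = 0.93, and 0.78 within groups). Tef was most like Lcat (r = 0.90), Entpd4 and Rab3ip, and most opposed to Pdk1 (r = -0.90). Per1 was most like Tp53inp1 (r = 0.86, and 0.71 within groups), Tsc22d3 (r = 0.85) and Tcim. Per2 had Cry2 (r = 0.71, and 0.76 within groups) in its leading 3 with Osbpl11 and Itpk1, and Per3 had Cyp4a1 (r = 0.81), Coq7 and Mob3b. Cry1 was most like Lonrf3 (r = 0.81) and most opposed to Eva1c (r = -0.77), which was in turn among the 3 most like Nr1d1 (r = 0.71). Nr1d2 was most like Lztfl1 (r = 0.77), Hlf most like Chid1 (r = 0.70), and Usp2 most like Oip5 (r = 0.83), Anlnl1 and Srsf4. The correlation of Usp2 with Oip5 was 0.38 within groups and that of Tef with Lcat 0.34. The points of each correlation share arrays, normalization and the group means.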

How the data were processed

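The values are linear intensities of probe sets, which the authors deposited after RMA, per the submitters' processing notes; the software version is not given in the sources used here. Array maxima were 982564 to 994415, above a usual scanner range, so folds hold on the deposited scale. Log2 was taken of each intensity. Of 68842 probe sets, 23446 had 1 symbol, 505 several and 44891 none. Each gene was represented by its probe set of highest average, and genes above the 30th percentile (19.475, or 4.28 on the log2 scale) in at least 4 arrays were tested.

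In R 4.3.3, limma 3.58.1 (lmFit, eBayes) fitted the 6 group means jointly to the 24 arrays, with 10 comparisons and two-sided p-values adjusted by the Benjamini-Hochberg method over 19686 genes. A gene was called at an adjusted p under 0.05. Errors are the model's standard errors. The design text names 5 animals a group, of which 4 have an array here. The steps were also run on simulated data with independent noise for each gene. That run checks the code and cannot vouch for the calls made here. Arrays carry no read depth, so the number of arrays limits the precision.

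The members and gene lists were chosen with earlier results of these data known, and the cell division list after seeing the data. All 10 members are named, with called members of the 5 other lists of clock and cue genes. The genes of highest and lowest r over the 24 arrays are named too. Of 60 pairs of same-numbered replicates, 4 had deviations from group means that correlated above 0.1 (-0.16 to 0.19). Pairs with different numbers were not compared, so a weak pairing would not show. The main fit did not use the numbers to pair the rats. Some listed genes are not reported here, and Elovl3 was below the filter. Alternatives were quantile normalization, centring on array medians, other filters, priors and probe set rules, a pseudocount, fitting only the groups compared, the replicate block and leaving out each rat.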

Additional observations from a re-analysis of the deposited data

Results flagged for a closer look

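Chance alone flags about 1 in 20 such sets. In 6 of 120 sets of 4 rats (20 genes in 6 groups), 1 rat lay apart from the other 3 by Dixon's test. Of these, 3 were clock genes described above. Per1 was 7.21 in metformin day 3 replicate 4, with the others at 7.89 to 7.95. Per2 was 7.89 in metformin day 1 replicate 1, with the others at 7.05 to 7.16. Cry1 was 7.88 in metformin day 14 replicate 1, with the others at 7.36 to 7.45. From the lists beside the members, the cue gene Nr4a1 was 5.33 in metformin day 3 replicate 2 (others 5.11 to 5.12). The clock output Wee1 was 6.85 in control day 3 replicate 4 (others 6.57 in all 3). Wee1 was also 6.84 in metformin day 3 replicate 3 (others 6.50 to 6.55).

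The metformin effect differed between days 14 and 1 for Tef (-0.45, limma adjusted p = 0.0278) and for Noct, the gene of nocturnin (1.79 ± 0.41, adjusted p = 0.0292). Noct means were 5.42 in control and 4.62 in metformin livers on day 1, and 4.37 and 5.35 on day 14. Some control livers of day 14 lay below the filter at 4.28. With a pseudocount of 16 added to the intensity, the difference for Noct was 1.16. The call of Noct was lost under centring (adjusted p = 0.0553) and without any 1 of 7 rats (0.054 to 0.0702). These were control day 1 replicates 1 and 3, control day 14 replicates 1 and 4, metformin day 1 replicates 2 and 4, and metformin day 14 replicate 4.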

How the results depend on the processing

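Of 900 values of the members under 9 alternatives, 9 had the other sign, and of 1200 values with 1 rat left out, 64 had; none of these 20 results passed in the main analysis and the largest was 0.13 in size. With centring, the change of Cry1 was 0.0025 on day 1, -0.026 on day 14 and -0.028 for the difference of day 14 minus day 1, and with the mean of probe sets it was 0.017 on day 1 and -0.0059 for that difference. On day 14, Per3 was -0.030 with quantile normalization and -0.024 with centring, and Usp2 was -0.0101 and -0.023. With 1 rat left out, the day 1 effect ran from -0.15 to 0.020 for Dbp, from -0.027 to 0.060 for Per3 and from -0.15 to 0.092 for Cry1. For the day 3 effect, the values ran from -0.061 to 0.27 for Hlf and from -0.033 to 0.087 for Per3. For the day 14 effect, the values ran from -0.030 to 0.077 for Per3, from -0.14 to 0.17 for Cry1, from -0.30 to 0.29 for Nr1d1 and from -0.17 to 0.18 for Usp2. For the mean effect, the values ran from -0.00077 to 0.042 for Per3. For controls on day 3 against day 1, the values ran from -0.12 to 0.046 for Dbp, from -0.022 to 0.047 for Tef and from -0.056 to 0.27 for Nr1d2. For the effect of day 3 minus day 1, the values ran from -0.10 to 0.24 for Per2, from -0.054 to 0.066 for Per3, from -0.19 to 0.37 for Nr1d1 and from -0.27 to 0.12 for Nr1d2. For the effect of day 14 minus day 1, the values ran from -0.050 to 0.056 for Per3 and from -0.13 to 0.17 for Cry1. For the effect of day 14 minus day 3, the values ran from -0.077 to 0.050 for Per3. Members called on day 14 with metformin were 1 in the main analysis, 0 with centring, 0 with only the groups compared and 0 to 1 with 1 rat left out. In controls, day 14 against day 1, there were 4, 2 with only the groups compared and 2 to 4 with 1 rat left out. Against day 3 there was 1 with a stricter filter and 1 with a trend and robust prior, both Dbp (adjusted p = 0.0458 and 0.0497). The mean effect gave 0 to 1 with 1 rat left out, and the effect of day 14 minus day 1 gave 1, 0 with centring and 0 to 1. Centring moved the median of all genes by up to -0.11, for the effect of day 14 minus day 3. The fit with the replicate block kept the 4 members called in controls from day 1 to day 14 and Tef on day 14 (adjusted p = 0.0327), with 1 member called there, and ended the call of Timeless (adjusted p = 0.055); it changed no other call of a clock gene. The count of all genes called was 3 on day 1 (0 to 14 over all alternatives), 50 on day 3 (0 to 372), 648 on day 14 (48 to 968), 635 for the mean effect (393 to 945), 359 in controls from day 1 to day 14 (243 to 375), 175 in controls from day 3 to day 14 (94 to 221), 0 for the effect of day 3 minus day 1 (0 to 11), 326 for the effect of day 14 minus day 1 (134 to 547), and 1 for the effect of day 14 minus day 3 (0 to 6). The number of arrays limits what could pass.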

Other observations

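Among the 8 genes of the glucocorticoid and CREB cues that reach Per1, 3 changed with metformin on average over the 3 days. Fkbp5, a co-chaperone of the glucocorticoid receptor, rose by 0.23 ± 0.04 (limma, adjusted p = 0.00733). Its means with metformin were 7.40, 7.42 and 7.29 on days 1, 3 and 14, against 7.19, 7.10 and 7.14 in controls. Dusp1, a phosphatase of MAP kinases that is induced by stress, fell by 1.44 ± 0.35 (adjusted p = 0.024), from control means of 11.94, 10.74 and 11.39 to 10.06, 10.33 and 9.37. Nr4a1, an early response nuclear receptor, fell by 0.20 ± 0.05 (adjusted p = 0.0316). None of the 3 was called on a single day. The call of Dusp1 was lost without metformin day 1 replicate 4 (adjusted p = 0.0518). That of Nr4a1 was lost under centring (0.081) and without any 1 of 9 rats (0.0517 to 0.0634). These were control day 1 replicates 1 and 2, control day 3 replicate 1, control day 14 replicate 1, metformin day 1 replicate 4, metformin day 3 replicates 3 and 4, and metformin day 14 replicates 2 and 3. The call of Fkbp5 was kept in every alternative run. Over all genes 3.23% were called in this comparison.

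Crem means in control livers were 8.64, 8.86 and 9.41 on the 3 days, and were 8.29, 8.69 and 9.38 with metformin. Wee1 fell also between day 3 and day 14 (-0.64, adjusted p = 0.0221), a call that was lost without control day 3 replicate 3 or 4 or without control day 14 replicate 2, 3 or 4 (adjusted p up to 0.0767). Metformin means of Wee1 were 6.76, 6.60 and 5.92 against control means of 6.84, 6.64 and 5.99.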
